A study of Mus musculus with 18 samples.

Results

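Messenger RNA was followed in Arf-C, a line of mouse embryonic stem cells, before differentiation (day 0) and after 8 days of a protocol directed towards posterior foregut endoderm, the part of the embryonic gut from which the pancreas grows. FPKM are fragments per kilobase of gene length, scaled by a size factor for each library. A gene entered the description when it reached 0.5 FPKM in at least 3 of the 6 Arf-C libraries, 3 at day 0 and 3 at day 8. That rule took 15297 of the 54532 genes of the deposited table. Of these, 12156 reached the level in all 6 libraries, 1177 in the 3 day 8 libraries and none at day 0, and 457 in the 3 day 0 libraries and none at day 8. The 1904 genes that reached it in exactly 3 libraries had a median mean of 0.656 FPKM, and the 852 genes outside that reached it in exactly 2 had one of 0.380 FPKM. A further 24966 genes had no read in any of the 6 libraries.

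The series holds 18 libraries from the male mouse embryonic stem cell line ES-E14TG2a, in 3 lines (Ctrlv2, Arf-B, Arf-C), with 3 replicates per line at day 0 and as many at day 8. The genotype label reads wild type for every group, including both Arf lines, and the sources used here do not give how the Arf lines were made or whether each is a single clone. All cells were grown on gelatine with serum and leukaemia inhibitory factor (LIF), which holds them in the pluripotent state, and day 0 is that state. Every day 8 group then had the same treatment, activin A (20 ng/mL) with Matrigel from day 0, followed by retinoic acid (written in the labels as 5 μM/ml) and FGF10 (10 ng/mL) from day 4. The series title names p19Arf, a product of the Cdkn2a locus, and the pancreatic lineage. Replicates are not stated to be separate cultures, so the p-values measure only the spread between these samples. In a bulk sample, fewer cells of a type and less RNA per cell cannot be told apart.

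Embryonic stem cells keep their state through the transcription factors Pou5f1, Sox2 and Nanog and leave it when LIF is withdrawn. Activin A stands in for Nodal, the signal that induces mesoderm and definitive endoderm in the embryo. Retinoic acid, a derivative of vitamin A, binds nuclear receptors of the Rar and Rxr families that sit on paired hexamers in DNA, and its best known targets are its own degrading enzymes, its receptor Rarb and the Hox genes. The p19Arf protein holds back Mdm2, the ubiquitin ligase that keeps the transcription factor Trp53 (p53) low.

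The Arf-C libraries held 24872495, 30385379 and 26280527 reads on genes at day 0 and 15464562, 15678839 and 14598683 at day 8, so depth moved with the day, and its part in the calls was tested by thinning every library to the size of the smallest. Mitochondrial genes took between 2.01% and 3.00% of the reads. The lines differed in Y-linked genes, which summed to between 8.15 and 9.74 FPKM at day 8 in Arf-C and between 45.7 and 50.8 in Ctrlv2. Ddx3y, a Y-linked RNA helicase gene, was at 0.554 ± 0.0984 FPKM at day 0 and 0.240 ± 0.105 at day 8 in Arf-C, and at 13.3 ± 7.42 and 19.8 ± 1.09 in Ctrlv2. Its part in the differences between lines was not tested. Calls rest on limma's moderated test on log2(FPKM + 1) at the 0.05 threshold of the adjusted p, with Benjamini-Hochberg adjustment over the 17200 genes that reached the level in at least 3 of the 18 libraries. All log2 fold changes below are on that scale, which understates the change of low genes. SE is the standard error of that fit, and ± gives the SD over 3 libraries.

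At day 8, 5201 members (34.0%) were called higher than at day 0 and 5579 (36.5%) lower, and 4517 were not called. With every library scaled to the same FPKM sum, the split became 6295 higher and 4255 lower, so that the higher share of the calls went from 48.25% to 59.67% and the median log2 fold change of the members moved from -0.04 to 0.11. Changes of at least 2-fold on the log2(FPKM + 1) scale numbered 1645 upwards (10.8%) and 1295 downwards (8.47%). All 3 day 8 libraries lay above all 3 day 0 libraries for 5405 members (35.3%) and below them for 5876 (38.4%). The 10th and 90th percentiles of the log2 fold changes were -0.92 and 1.05. Among the 783 long noncoding RNA members 146 rose and 333 fell, whereas the 12748 protein-coding members divided into 4843 and 4811. With reads thinned to the smallest library, an alternative added after the data were seen, 4968 members were higher and 5351 lower. Counts of list members below are to be read beside the shares over all members, 34.0% higher and 36.5% lower. Members that passed the level rule through a single day could only be higher in that day.

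**Figure D1:**
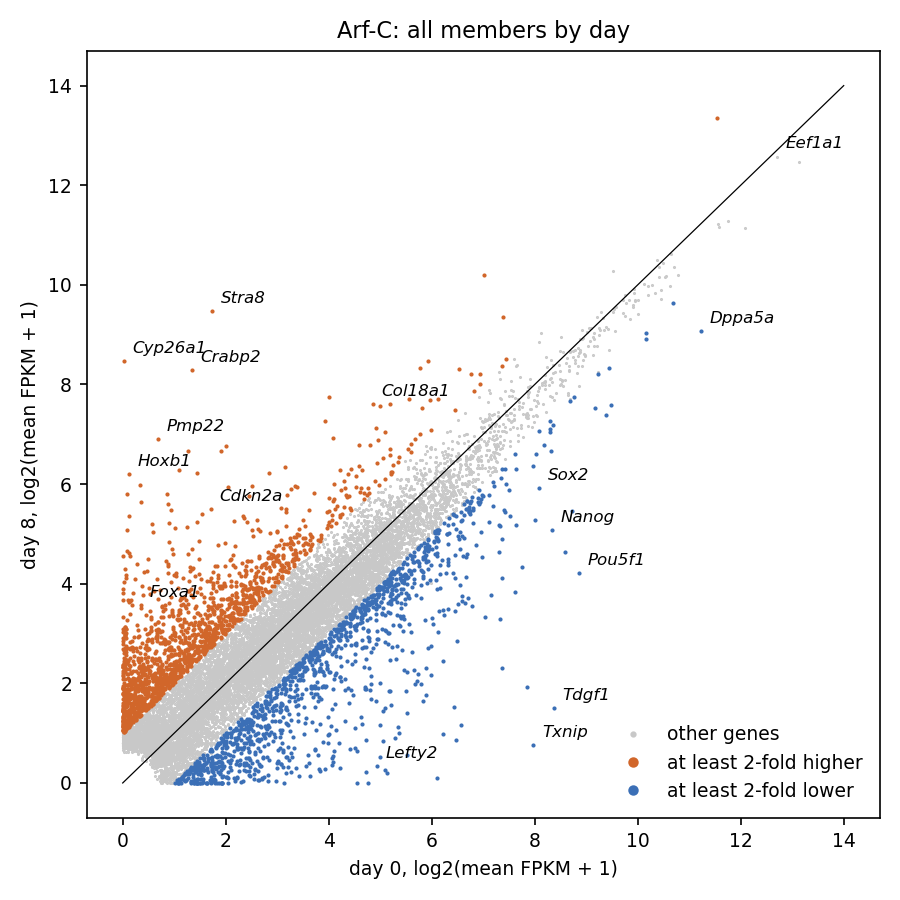
Mean level of each of the 15297 members at day 0 (x axis) and day 8 (y axis) in Arf-C, both as log2(FPKM + 1), with the line of equal levels. Orange points are the 1645 genes called and at least 2-fold higher at day 8 and blue points the 1295 at least 2-fold lower. Cyp26a1, Stra8 and Crabp2 lie farthest above the line, and Txnip and Tdgf1 far below it.

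Each line's own day response was estimated from its own libraries. Across members, the responses of Arf-C and Ctrlv2 had a Pearson r of 0.83 and those of Arf-C and Arf-B one of 0.97, given as a description over genes, which are not independent replicates. The response of Arf-C was more positive than that of Ctrlv2 for 3072 members (20.1%) and more negative for 3116 (20.4%), by the interaction term of the fit. Against Arf-B the same term called 2 members in each direction (0.0131% each), and 600 and 678 had an unadjusted p below 0.05. Of the 1645 genes that rose at least 2-fold in Arf-C, 1530 were called higher in Ctrlv2, 23 lower and 92 neither.

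Genes that handle retinoic acid rose, among them Cyp26a1, which had the largest log2 fold change of the genes named here. Cyp26a1, the main enzyme that degrades retinoic acid (ENSMUSG00000024987, chr19:37697808-37701528, plus strand in mm10), had 0.0697, 0 and 0 FPKM at day 0 and 412, 328 and 322 FPKM at day 8. The 3 day 0 libraries held 3 reads on the gene between them, and every day 8 library stood far above them (log2 fold change 8.43 with an SE of 0.096, adjusted p = 6.48e-18). Rarb, a nuclear receptor for retinoic acid (ENSMUSG00000017491, chr14:16430839-16819156, minus strand), had 0.0626, 0.0326 and 0.0829 FPKM at day 0 and 9.88, 8.25 and 7.91 FPKM at day 8. All 3 day 8 libraries again stood far above day 0, at a level well below that of Cyp26a1 (log2 fold change 3.19 with an SE of 0.0905, adjusted p = 9.41e-14).

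These genes are shown first because both carry, just before the start of the RefSeq promoter table, the paired hexamer that retinoic acid receptors are known to bind. For Rarb that start lies inside the span given above and is not its outer end. RefSeq promoters (GRCm38.p6, 250 bases before to 50 after the start) were searched on both strands for 2 copies, in the same direction, of a hexamer made of A or G, then G, then G or T, then TCA, spaced by 5, 2 or 1 bases. The stretches shown are read along the gene from 5′ to 3′, begin 40 bases before the repeat and end at the last base before the start, and capitals mark the 2 hexamers. The Cyp26a1 stretch is chr19:37697736-37697807 on the plus strand, and its repeat, spaced by 5, reads on the opposite strand, with 15 bases between it and the start. The Rarb stretch is chr14:16575477-16575569 on the minus strand, and its repeat, also spaced by 5, reads along the gene, with 36 bases between it and the start.
Cyp26a1: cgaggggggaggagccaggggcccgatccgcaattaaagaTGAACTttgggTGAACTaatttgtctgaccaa
Rarb: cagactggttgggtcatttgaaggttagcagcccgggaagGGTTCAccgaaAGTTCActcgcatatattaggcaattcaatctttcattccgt

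Of all 32851 RefSeq promoters, 32 (0.0974%) held such a repeat spaced by 5, 88 (0.268%) one spaced by 2 and 73 (0.222%) one spaced by 1, and 193 (0.588%) held any of the 3, so no promoter held repeats of different spacing. Among the 12 members on the list of retinoic acid metabolism and binding, 9 had a promoter in the table and 1 of them, Cyp26a1, held a repeat. For the receptor list the numbers were 9 members, 7 promoters and 1 repeat (Rarb). No repeat was found in the 7 promoters of retinoic acid target genes or the 13 of Hox genes, which says only that these letters are not in those windows. Of the genes whose promoter held a repeat spaced by 5, 6 were members. Cyp26a1, Rarb and Ppbp were members through day 8 alone, so that their being higher follows from the level rule and is no count of support. Ppbp was at 0 in the 3 day 0 libraries and 0.782, 0.701 and 0.581 FPKM at day 8. Of the other 3, Syndig1 fell from 1.70 ± 0.323 to 0.498 ± 0.221 FPKM, and Blvrb and Cfap45 were not called (log2 fold changes -0.05 and -0.01).

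Most other enzymes and carriers of retinoic acid that reached the level also rose, as counted below. The intracellular binding protein Crabp2, which passes retinoic acid to its nuclear receptors, had 1.15, 1.64 and 1.80 FPKM at day 0 and 327, 304 and 307 FPKM at day 8 (log2 fold change 6.96 with an SE of 0.134, adjusted p = 1.19e-15). Cyp26b1, a second degrading enzyme, had 0.0847, 0.0705 and 0.0222 FPKM at day 0 and 59.5, 57.0 and 47.4 FPKM at day 8 (log2 fold change 5.71 with an SE of 0.0974, adjusted p = 3.12e-16). In both genes every day 8 library exceeded every day 0 library by a wide margin, and their 3 libraries within a day lay close together.

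Dhrs3, which turns retinaldehyde back to retinol, went from 0.264 ± 0.195 to 62.1 ± 4.47 FPKM (log2 fold change 5.65 with an SE of 0.109, adjusted p = 1.13e-15). Stra6, the membrane receptor that takes up retinol, had 0.0636, 0 and 0.0136 FPKM at day 0 and 17.9, 19.3 and 18.8 FPKM at day 8 (log2 fold change 4.26 with an SE of 0.0762, adjusted p = 4.93e-16). The enzymes that make retinoic acid stayed low by comparison, with Aldh1a2 at 1.86 ± 0.363 FPKM at day 8 (log2 fold change 0.71 with an SE of 0.101, adjusted p = 1.2e-05) and Aldh1a1 and Aldh1a3 below the level rule. Of the 15 genes on this list 12 were members, 5 of them through day 8 alone, and 11 of the 12 were called higher and 1 lower. The median log2 fold change of the 12 was 3.89, beside -0.04 over all members, with the day 8 part fixed by the level rule for those 5. The gene called lower was Rdh11, a retinal reductase (log2 fold change -0.26 with an SE of 0.0868, adjusted p = 0.0137). Its groups overlapped, and the call was lost without day 0 replicate 2, day 8 replicate 1 or day 8 replicate 3 (adjusted p between 0.0504 and 0.0748), and with the same sum (log2 fold change -0.09, adjusted p = 0.411).

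Summed over the list, FPKM reached 1046, 908 and 898 in the 3 day 8 libraries. Ctrlv2 reached more, from 1154 to 1294. The most abundant members, Cyp26a1 and Crabp2, were at 566 ± 32.4 and 401 ± 30.1 FPKM there, and their day responses were smaller in Arf-C (differences -0.53 and -0.81, adjusted p = 0.00567 and 0.00341). For Cyp26a1, near 0 at day 0 in both lines, the difference changed sign with the setting. It was 0.23 with a pseudocount of 0.1 and 1.96 with voom on recovered reads, neither called (adjusted p = 0.692 and 0.212). Stra6 went the other way, with a larger response in Arf-C (difference 1.60 with an SE of 0.108, adjusted p = 5.33e-08) and 5.80 ± 0.818 FPKM in Ctrlv2 at day 8.

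Among the receptors the balance of subtypes changed. Rarg, the receptor most abundant in the stem cells, had 41.0, 45.5 and 40.1 FPKM at day 0 and 13.6, 13.9 and 14.2 FPKM at day 8 (log2 fold change -1.53 with an SE of 0.0638, adjusted p = 6.59e-12), so every day 8 library was below every day 0 library. Rara rose modestly from 10.3 ± 0.461 to 16.2 ± 0.760 FPKM (log2 fold change 0.60, adjusted p = 1.42e-06), and its partner Rxra from 4.15 ± 0.289 to 9.59 ± 0.195 (log2 fold change 1.04, adjusted p = 1.27e-09). Of 9 receptors and cofactors on the list, 1 of them (Rarb) a member through day 8 alone, 4 rose and 3 fell. Those that fell were Rarg and the coactivators Ncoa3 and Ncoa1. Rarg fell less in Arf-C than in Ctrlv2 (difference 1.15 with an SE of 0.0903, adjusted p = 2e-07).

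Stra8, a retinoic acid target that starts meiosis in germ cells, was the most abundant gene of the target list at day 8. It had 2.47, 2.61 and 1.94 FPKM at day 0 and 689.9, 690.0 and 742 FPKM at day 8 (log2 fold change 7.74 with an SE of 0.0997, adjusted p = 1.45e-17). The day 0 and day 8 values do not overlap, and the day 8 libraries differed from each other by little. Ctrlv2 reached a like level at day 8, 807 ± 46.1 FPKM, but started from 41.9 ± 6.48 FPKM, and the day response of Arf-C was more positive by 3.49 on the log2 scale (adjusted p = 3.76e-10).

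Rec8, a meiotic cohesin, had 2.67, 3.69 and 2.73 FPKM at day 0 and 119, 107 and 98.2 FPKM at day 8 (log2 fold change 4.77 with an SE of 0.123, adjusted p = 3.68e-14). Day 8 again stood clear of day 0. Homeodomain cofactors of Hox proteins rose too. Meis2 went from 0.828 ± 0.0676 to 19.5 ± 2.00 FPKM and Meis1 from 0.0759 ± 0.0137 to 4.43 ± 0.544 (log2 fold changes 3.48 and 2.33). The transcriptional regulators Zfp503 and Tshz1 had log2 fold changes of 4.10 and 3.81. Of 12 members on the target list, 4 of them members through day 8 alone, 11 were called higher and none lower. The one not called was Cdx1, a homeobox gene of the posterior axis (log2 fold change 0.39, adjusted p = 0.0652), which was at 11.7 ± 1.03 FPKM at day 0 and 15.8 ± 3.08 at day 8. In Ctrlv2 Cdx1 was at 1.90 ± 0.532 FPKM at day 8, and the difference in response was 2.08 (adjusted p = 1.54e-05). The Arf-C response of Cdx1 was called without day 8 replicate 1 (adjusted p = 0.0243), with Arf-C libraries alone (0.0332), with voom on recovered reads (0.0330) and with the same sum (0.00985).

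Hox genes, which give cells their position along the body axis and open in order from the 3′ end of each cluster under retinoic acid, went from near silence to high levels. Hoxb1 (ENSMUSG00000018973, chr11:96365752-96368256, plus strand) had 0.0710, 0.103 and 0.0855 FPKM at day 0 and 79.1, 72.7 and 65.6 FPKM at day 8 (log2 fold change 6.08 with an SE of 0.0743, adjusted p = 9.75e-18). All 3 day 8 libraries lay far above day 0 and close to one another.

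Genes in the middle of the clusters were also high at day 8. Hoxa5 had 41.8, 39.5 and 39.5 FPKM at day 8, Hoxb8 26.4, 23.1 and 23.5 and Hoxb9 34.9, 31.9 and 28.3, from means of 0.0893, 0.0649 and 0.504 FPKM at day 0. Hoxb5, Hoxc5 and Hoxc8 had no read in any day 0 library and 13.8 ± 1.36, 11.8 ± 2.61 and 7.49 ± 1.15 FPKM at day 8. Many genes at the 5′ ends stayed low. Hoxa9, Hoxa10, Hoxa11, Hoxc11, Hoxd10, Hoxd11 and Hoxd12 each had a day 8 mean below 0.5 FPKM. Hoxb13, Hoxd13, Hoxc10 and Hoxa13 did rise, to day 8 means between 0.743 and 2.01 FPKM.

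Of 40 Hox identifiers in the table, 29 were members, 24 of them through day 8 alone and 1 through day 0 alone. Of the 29, 27 were called higher and 2 lower. The 2 that fell were the 5′ genes Hoxc12, from 2.43 ± 0.0343 to 0.116 ± 0.0964 FPKM (log2 fold change -1.62 with an SE of 0.188, adjusted p = 1.24e-06), and Hoxc13, from 5.28 ± 0.310 to 3.41 ± 0.553 (log2 fold change -0.52 with an SE of 0.132, adjusted p = 0.00264). The summed Hox level went from 12.5, 12.4 and 11.8 FPKM to 418, 401 and 384. In Ctrlv2 the day 8 sums ran from 262 to 288, below every Arf-C library. The response was more positive in Arf-C for 14 Hox members, and more negative for 5. Hoxb1, at 19.15 ± 0.576 FPKM in Ctrlv2 at day 8, was among the 14 (difference 1.74 with an SE of 0.105, adjusted p = 1.72e-08). The Hoxb1 difference was -1.75 and not called with voom on recovered reads (adjusted p = 0.152).

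Pluripotency genes fell, to levels that were low but above 0. Pou5f1, which encodes Oct4 (ENSMUSG00000024406, chr17:35506018-35510772, plus strand), had 417, 508 and 461 FPKM at day 0 and 11.9, 17.3 and 23.3 FPKM at day 8 (log2 fold change -4.69 with an SE of 0.173, adjusted p = 2.59e-12). Nanog (ENSMUSG00000012396, chr6:122707489-122714633, plus strand) had 332, 301 and 335 FPKM at day 0 and 19.5, 33.8 and 45.2 FPKM at day 8 (log2 fold change -3.33 with an SE of 0.285, adjusted p = 6e-08). The groups do not overlap in either gene, and at day 8 library 1 was the lowest and library 3 the highest for both.

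Sox2, shared with neural and foregut cells, had 271, 282 and 260.3 FPKM at day 0 and 44.4, 61.8 and 72.7 FPKM at day 8 (log2 fold change -2.19 with an SE of 0.138, adjusted p = 1.04e-09), with the same placing of the day 8 libraries. Tdgf1, the Nodal coreceptor Cripto, had 332, 315 and 348 FPKM at day 0 and 1.87, 1.83 and 1.78 FPKM at day 8 (log2 fold change -6.88 with an SE of 0.183, adjusted p = 9.42e-14), and there the 3 day 8 libraries were alike. Its close copy Tdgf1-ps1 fell as well, and how the authors' counting divided reads between them is not known. Of the naive pluripotency list 13 of 15 genes were members and all 13 fell, with a median log2 fold change of -3.28. The kinase cofactor Tcl1 and the transcription factors Nr0b1, Klf2 and Klf4 had log2 fold changes of -5.63, -5.08, -4.05 and -3.73. Of 11 core genes 10 fell and 1, the RNA-binding protein Lin28a, rose from 66.2 ± 4.27 to 86.6 ± 3.13 FPKM (adjusted p = 2.97e-05).

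The summed level of the naive genes was 2065, 1995 and 2054 FPKM at day 0 and 124, 187 and 239 at day 8. All 3 day 8 values were above those of Ctrlv2, which ran from 50.2 to 61.4. The difference in response was called as more positive in Arf-C for 10 of the 13 naive and 8 of the 11 core genes, and as more negative for none of either. Nanog was at 0.694, 0 and 0.916 FPKM in the Ctrlv2 day 8 libraries (difference 4.14 with an SE of 0.403, adjusted p = 2.53e-06), and Pou5f1 at 2.88, 3.73 and 3.97 (difference 2.50 with an SE of 0.245, adjusted p = 2.26e-06). In both genes the lowest Arf-C library was above the highest of Ctrlv2. Leaving out any one Arf-C library ended no call of the fall of either gene.

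Dppa5a, an RNA-binding protein gene that ranked among the 5 most abundant nuclear-encoded genes of Arf-C at day 0, stayed abundant at day 8. It had 2033, 2842 and 2330.0 FPKM at day 0 and 410.5, 532 and 665 FPKM at day 8 (log2 fold change -2.18 with an SE of 0.164, adjusted p = 9.43e-09), and Ctrlv2 had 79.8, 58.6 and 68.5 FPKM at day 8 (difference 3.14 with an SE of 0.232, adjusted p = 1.27e-07). Ooep, an oocyte factor also found in stem cells, kept 7.87 ± 2.29 FPKM in Arf-C and 0.395 ± 0.192 in Ctrlv2 (difference 2.56 with an SE of 0.222, adjusted p = 6.18e-07). The zygotic genes Zscan4c and Zscan4d, which mark a rare state in stem cell cultures, were near 0 at day 0 and at 4.07, 6.78 and 10.3 and 4.71, 7.12 and 10.8 FPKM at day 8. Both were called higher (adjusted p = 1.31e-08 and 5.08e-09), but their sequences are close to each other and reads may have been shared between them.

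**Figure D2:**
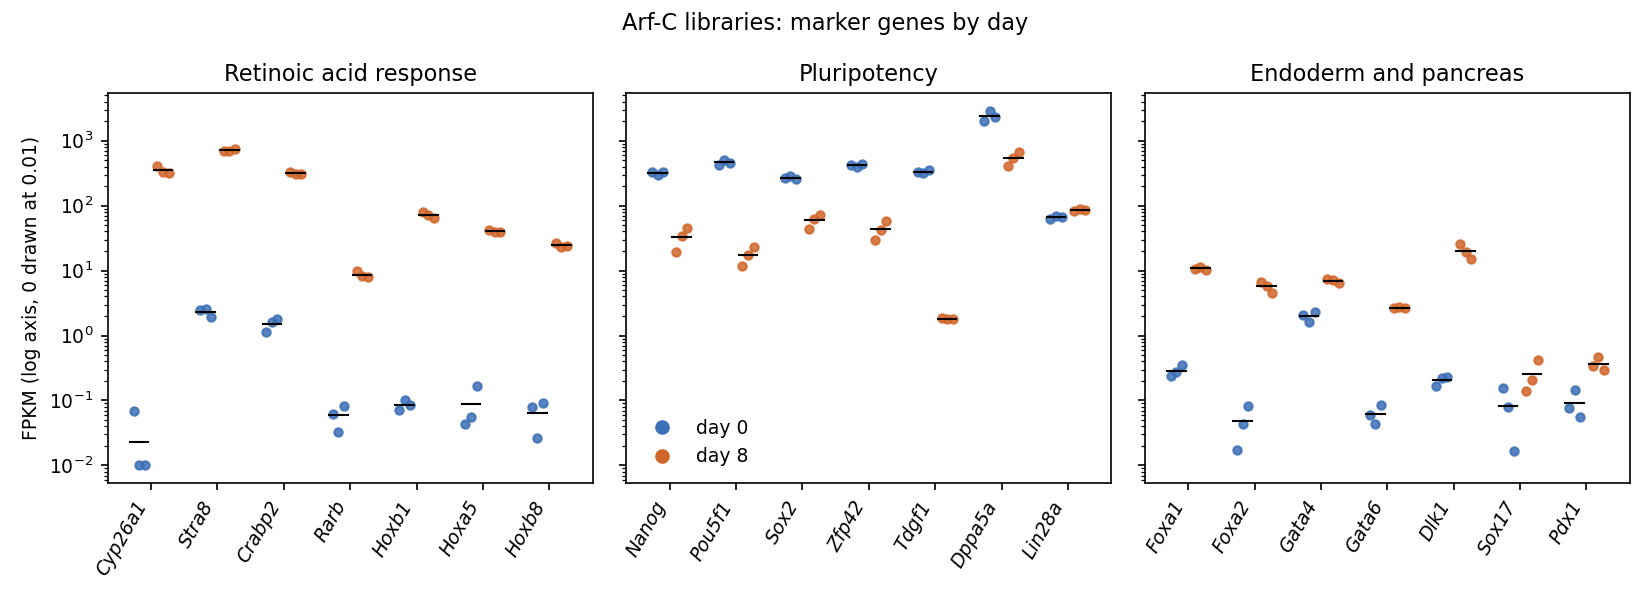
FPKM of 21 genes in each of the 6 Arf-C libraries, on a log axis with 0 drawn at 0.01. Blue points are the 3 day 0 libraries, orange points the 3 day 8 libraries, and black bars their means. Retinoic acid genes rise from at most 2.61 FPKM to values from 7.91 to 742 FPKM, pluripotency genes other than Lin28a fall, and Sox17 and Pdx1 stay below 0.5 FPKM.

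Endoderm genes rose only in part. On the posterior foregut and gut tube list 8 of 15 genes were members, 6 of them through day 8 alone. Of the 8, 7 were called higher and 1 lower, with a median log2 fold change of 1.22. The summed list was between 263 and 284 FPKM at day 0 and between 84.8 and 107 at day 8. Foxa1, a pioneer factor of the gut tube (ENSMUSG00000035451, chr12:57540628-57546916, minus strand), had 0.235, 0.278 and 0.346 FPKM at day 0 and 10.7, 11.5 and 10.4 FPKM at day 8 (log2 fold change 3.20 with an SE of 0.105, adjusted p = 4.31e-13). Foxa2, its relative in endoderm and floor plate, had 0.0174, 0.0434 and 0.0837 FPKM at day 0 and 6.71, 5.84 and 4.57 FPKM at day 8 (log2 fold change 2.67 with an SE of 0.124, adjusted p = 2.65e-11). Day 8 stood clear of day 0 in all libraries of both genes.

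Gata6 rose from 0.0624 ± 0.0213 to 2.68 ± 0.0503 FPKM and Gata4 from 2.00 ± 0.331 to 7.005 ± 0.499 (log2 fold changes 1.79 and 1.42, adjusted p = 2.25e-11 and 3.31e-09). Both are zinc finger factors of primitive, definitive and extraembryonic endoderm. Sox17, Cer1 and Hnf4a, which are on the definitive endoderm list and also on lists of extraembryonic endoderm, were low. Sox17 had 0.139, 0.208 and 0.422 FPKM at day 8, Cer1 0, 0.0336 and 0.145 and Hnf4a 0.0250, 0 and 0.0391, all under the level rule. Cxcr4, a surface receptor used to sort definitive endoderm cells, fell from 1.02 ± 0.221 to 0.402 ± 0.0874 FPKM (log2 fold change -0.52 with an SE of 0.123, adjusted p = 0.00139). Of 13 genes on the list 10 were members, 4 through day 8 alone and 1 through day 0 alone, with 6 higher and 2 lower. The second that fell, Foxa3, was at the threshold (adjusted p = 0.0468). Its call was lost without any one of 5 Arf-C libraries (adjusted p between 0.0717 and 0.154). The call was also lost with no filter (0.0893), thinned reads (0.499), the replicate block (0.0549), the same sum (0.145) and voom on recovered reads (0.0608).

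Against Ctrlv2, Foxa1 rose more in Arf-C (difference 1.18 with an SE of 0.148, adjusted p = 1.94e-05), with 2.81, 3.65 and 4.42 FPKM in the Ctrlv2 day 8 libraries. Gata4 rose less (difference -1.84 with an SE of 0.141, adjusted p = 1.53e-07), with 25.98, 23.1 and 26.1 FPKM there, and Gata6 rose less as well (difference -0.92, adjusted p = 2.25e-05). With voom on recovered reads the differences of Foxa1 and Gata6 were not called (0.47 and -0.09, adjusted p = 0.485 and 0.905), and that of Gata4 was. The response of Foxa2 was not separated from that of Ctrlv2 (difference 0.43, adjusted p = 0.0633). It was called as more positive without Arf-C day 8 replicate 3 (adjusted p = 0.0157) or Ctrlv2 day 8 replicate 3 (0.0346), and with the same sum (0.0402).

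Pancreatic genes were mostly at or below the level rule. Pdx1, the first transcription factor specific to the pancreatic bud, had 0.0764, 0.143 and 0.0552 FPKM at day 0 and 0.336, 0.460 and 0.291 FPKM at day 8. All 3 day 8 values were above day 0 but rested on 10 to 17 reads, and Pdx1 reached 0.5 FPKM in no Arf-C library and was not tested. Of 17 pancreatic progenitor genes 10 were members, 5 through day 8 alone, with 6 called higher and 4 lower. Dlk1, a paternally expressed gene of the early pancreatic epithelium and many other embryonic tissues, had 0.168, 0.218 and 0.232 FPKM at day 0 and 26.1, 19.3 and 15.1 FPKM at day 8 (log2 fold change 4.10 with an SE of 0.154, adjusted p = 1.84e-12). Sox9, needed for pancreatic progenitors, had no read at day 0 and 1.72 ± 0.340 FPKM at day 8, and Prox1 and Mnx1 reached 1.36 ± 0.245 and 1.23 ± 0.155.

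The 4 that fell were the stem cell factor Nr5a2, the Notch effectors Hes1 and Rbpj, and Nkx6-2. Their log2 fold changes were -2.59, -1.17, -0.85 and -1.78 in that order. Ptf1a, Nkx6-1, Nkx2-2 and Rfx6, which mark later progenitors, had day 8 means of 0.161, 0.0386, 0.0214 and 0.0746 FPKM. In the endocrine list 8 of 23 genes were members. Sst, Gcg, Pax4, Iapp and Ins1 had no read in any of the 6 libraries, and Neurog3, the switch to endocrine fate, had a day 8 mean of 0.194 FPKM. Pax6 rose from 0.0772 ± 0.0119 to 2.16 ± 0.423 FPKM, while Chga fell from 3.54 ± 0.129 to 0.878 ± 0.0488 and Neurod1 from 0.686 ± 0.136 to 0.0729 ± 0.0442. Exocrine and liver genes were near 0, with 1 of 16, Cela1, at the level.

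Markers of other cell types were measured in the same libraries, and their part in the results above was not tested. The primitive and parietal endoderm list had 15 members of 18, 4 through day 8 alone, and of the 15, 10 rose and 5 fell. Sox7, a factor of that lineage, had 0.599, 0.270 and 0.241 FPKM at day 0 and 7.84, 10.2 and 9.94 FPKM at day 8 (log2 fold change 2.92 with an SE of 0.114, adjusted p = 3.1e-12), and Dab2, an endocytic adaptor of primitive endoderm, went from 0.298 ± 0.0603 to 6.02 ± 0.327 FPKM. Srgn and Thbd, products of mature parietal endoderm, stayed under the level. The summed list was between 137 and 169 FPKM at day 0, 196, 206 and 194 FPKM in the day 8 libraries of Arf-C and 548 to 719 in those of Ctrlv2. The response was more negative in Arf-C for 11 of the 15 and more positive for none.

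Laminin and collagen genes of the basement membrane differed within that list. Lama1, a laminin chain of the earliest basement membranes, had 19.8, 13.7 and 16.2 FPKM at day 0 and 4.49, 4.82 and 5.16 FPKM at day 8 (log2 fold change -1.58 with an SE of 0.172, adjusted p = 7.21e-07), every day 8 library being lower. In Ctrlv2 it was at 40.2, 35.4 and 34.9 FPKM at day 0 and 75.7, 52.8 and 88.9 at day 8, and the responses differed by -2.51 (adjusted p = 1.95e-06). Col4a1 rose in Arf-C from 2.09 ± 0.255 to 15.7 ± 0.721 FPKM and in Ctrlv2 to 72.9 ± 11.8 (difference -1.44 with an SE of 0.14, adjusted p = 1.66e-06). Col18a1, another basement membrane collagen, rose more in Arf-C, from 27.9 ± 2.19 to 193 ± 8.18 FPKM (difference 0.63 with an SE of 0.118, adjusted p = 0.00062).

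Smooth muscle and contractile genes rose for 8 of 9 members, 3 of the 9 being members through day 8 alone. Their sum lay between 33.6 and 36.3 FPKM at day 0 and between 106 and 129.8 at day 8, below the 210.1 to 244 of Ctrlv2. Myl9, a myosin light chain, went from 0.0236 ± 0.0409 to 7.36 ± 0.939 FPKM (log2 fold change 3.02 with an SE of 0.135, adjusted p = 1.61e-11), and Tpm1 from 8.08 ± 0.765 to 54.3 ± 7.69. Acta2, smooth muscle actin, had no read at day 0 and 1.80, 1.28 and 0.989 FPKM at day 8, at least 21.0-fold above the level of 3 reads per day 0 library. In Ctrlv2 it reached 13.2, 13.0 and 21.0 FPKM (difference -2.78 with an SE of 0.212, adjusted p = 1.53e-07), well above the Arf-C libraries, and Acta1 behaved likewise (difference -2.94, adjusted p = 4.46e-09). With voom weights on recovered reads the Acta2 difference was not called (adjusted p = 0.102).

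Visceral endoderm, the yolk sac tissue that shares many endoderm genes, had 5 of 12 genes at the level, 2 of them through day 8 alone, with 3 higher and 2 lower. Afp and Ttr, which define it best, were near 0 at day 8 (0.0304 and 0.0172 FPKM). Apoe, the lipid carrier gene of that list, had 1065, 1221 and 1128 FPKM at day 0 and 467, 488 and 489 FPKM at day 8 (log2 fold change -1.24 with an SE of 0.0787, adjusted p = 1.04e-09), every day 8 library being lower.

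Mesoderm genes were few, 6 of 16 at the level, 5 of them through day 8 alone, with a sum of at most 2.02 FPKM at day 0 and between 20.8 and 23.6 at day 8. Meox1, a homeobox gene of somites, had 0.111, 0.216 and 0.0178 FPKM at day 0 and 11.7, 11.5 and 11.97 FPKM at day 8 (log2 fold change 3.52 with an SE of 0.0853, adjusted p = 1.93e-14), and reached only 1.54, 1.31 and 1.67 FPKM in Ctrlv2 (difference 2.58 with an SE of 0.121, adjusted p = 1.3e-09). Foxf1, of splanchnic mesoderm, had no read at day 0 and 2.48 ± 0.252 FPKM at day 8, at least 51.9-fold above 3 reads per library. The heart muscle genes Actc1, Tnnt2 and Myh7 were near 0 in every library, and Myh6 reached 0.524 ± 0.0787 FPKM without meeting the rule. Of 17 neural genes 9 were members, and the list summed to between 65.1 and 71.5 FPKM at day 0 and between 23.4 and 25.2 at day 8. Of the 9 members, 5 through day 8 alone and 2 through day 0 alone, 5 rose and 4 fell. Their median log2 fold change was 0.61. Nes, Zic1, Pax6 and Pax3 were among those that rose (log2 fold changes 2.50, 2.33, 1.54 and 1.34). Stmn2, Tubb3, Sox1 and Elavl3 fell, and Stmn2, from 44.2 ± 3.22 to 2.59 ± 1.37 FPKM, accounts for most of the fall in the sum.

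Epithelial genes rose for 14 of 16 members and fell for none, and 2 of the 16 were members through day 8 alone. The keratins led. Krt19 had 0.267, 0.296 and 0.278 FPKM at day 0 and 64.0, 46.3 and 36.1 FPKM at day 8 (log2 fold change 5.24 with an SE of 0.159, adjusted p = 2.19e-13), and Krt18 had 1.83, 3.48 and 2.87 FPKM at day 0 and 124, 104 and 75.8 FPKM at day 8 (log2 fold change 4.77 with an SE of 0.183, adjusted p = 4.4e-12). No day 8 value came near day 0, and in both genes library 1 was the highest and library 3 the lowest of day 8, the reverse of the placing for Nanog and Pou5f1. The part of that spread in the calls was measured by leaving out each library, which ended neither keratin's call. The tight junction gene Cldn6 went from 14.1 ± 0.368 to 153 ± 20.5 FPKM and Cldn4 from 69.0 ± 7.31 to 208 ± 18.2.

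Cdh1, the adhesion protein of epithelia and of stem cell colonies, was at 78.8 ± 1.89 and 95.6 ± 8.09 FPKM, and Epcam at 78.1 ± 8.32 and 86.8 ± 4.39. The Epcam rise was not called in the reported fit (log2 fold change 0.155, adjusted p = 0.112). It was called without day 0 replicate 2 (adjusted p = 0.0221) and with the same sum (log2 fold change 0.35, adjusted p = 0.000533). In Ctrlv2 they fell from 79.5 ± 6.24 and 81.3 ± 3.58 to 45.4 ± 1.51 and 23.1 ± 2.49 FPKM, and the responses of Arf-C were more positive (differences 1.06 and 1.93, adjusted p = 5.1e-07 and 1.74e-08). Summed epithelial genes were at 948, 848 and 738 FPKM in the day 8 libraries and between 275 and 301.5 at day 0. Keratins 7, 8 and 18 also mark trophoblast. Of 11 trophoblast members, 4 through day 8 alone, 7 rose and 2 fell. The list summed to at most 35.9 FPKM at day 0, between 142 and 215 at day 8 and between 383 and 449.5 in Ctrlv2 at day 8. Gata3 reached 3.58 ± 0.654 FPKM, and the placental genes Prl3d1 and Tpbpa had no read.

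In the mesenchyme list Vim, an intermediate filament gene, had 37.9, 42.8 and 40.5 FPKM at day 0 and 18.9, 19.4 and 18.4 FPKM at day 8 (log2 fold change -1.05 with an SE of 0.0952, adjusted p = 6.89e-08), all day 8 libraries being lower, and rose in Ctrlv2 from 20.1 ± 1.01 to 29.3 ± 4.59 FPKM (difference -1.57 with an SE of 0.135, adjusted p = 4.97e-07). Cdh2, the cadherin of mesenchyme and neural tissue, rose in Arf-C from 1.36 ± 0.0951 to 4.40 ± 0.215 FPKM but more in Ctrlv2, to 7.74 ± 0.765 (difference -1.36 with an SE of 0.0997, adjusted p = 1.04e-07). Of 10 members, 1 through day 8 alone, 6 rose and 3 fell. The response was more negative than in Ctrlv2 for 6 of the 10 and more positive for 1.

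**Figure D3:**
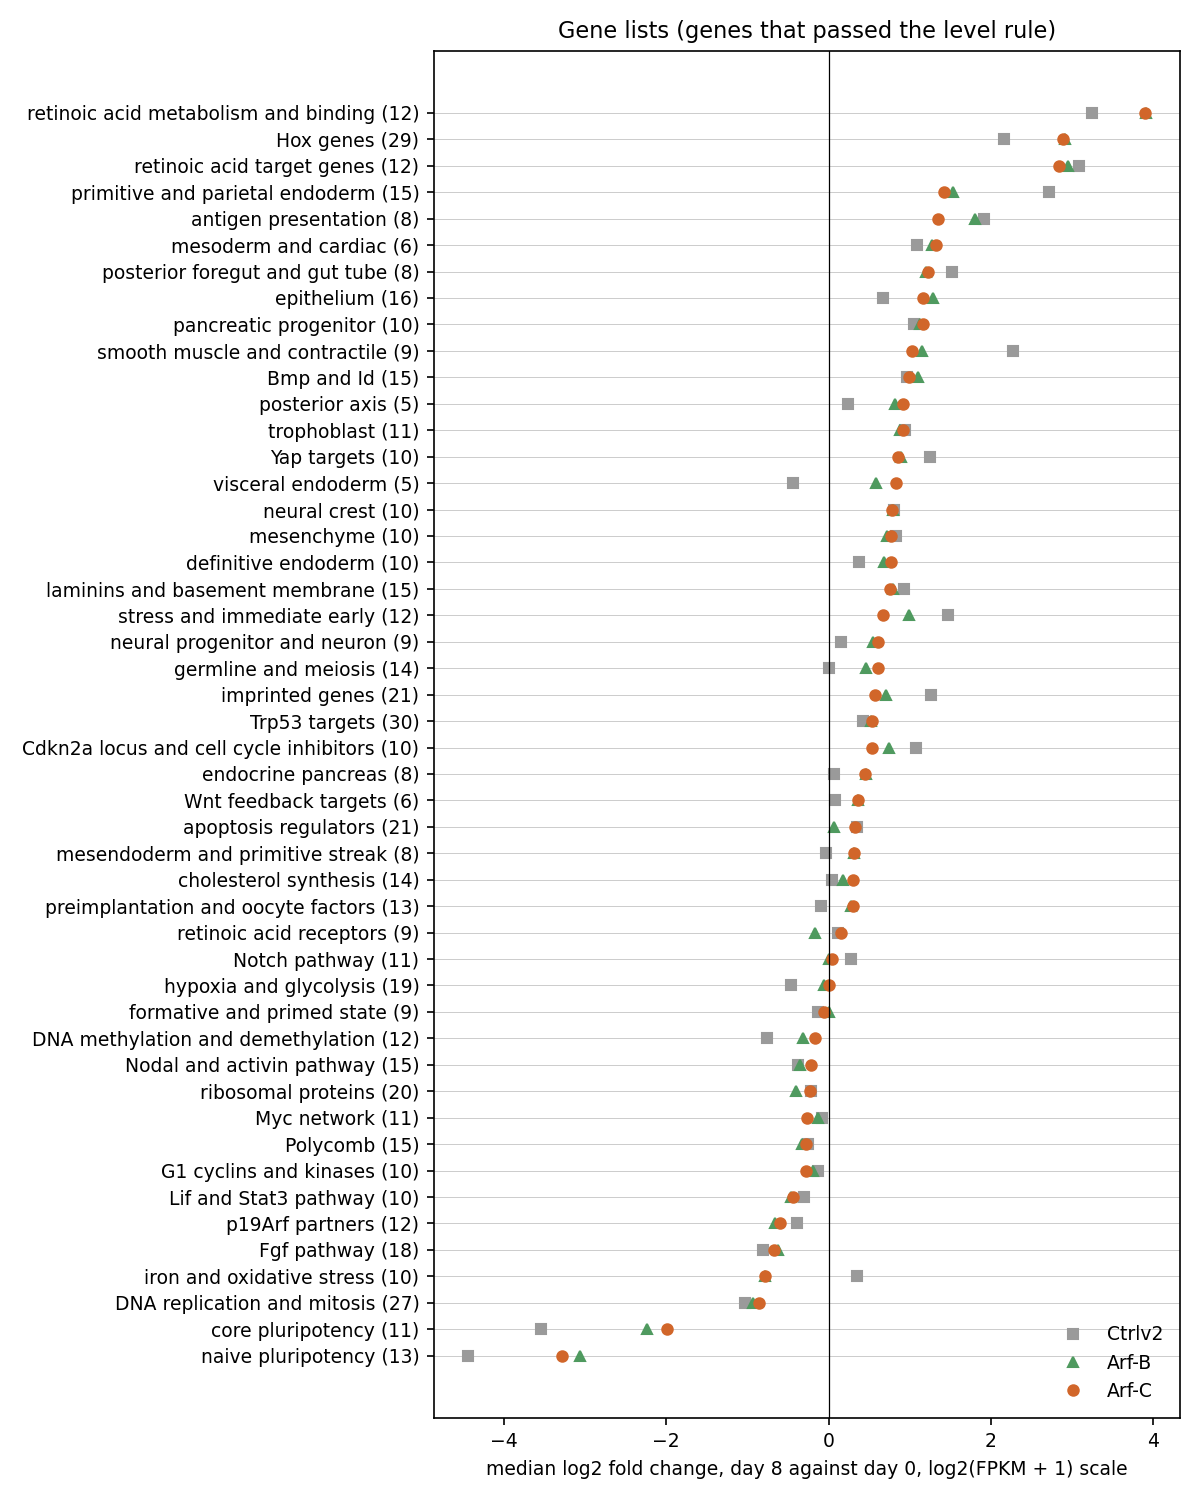
Median log2 fold change from day 0 to day 8 of each gene list with at least 5 genes at the level, in Arf-C (orange circles), Arf-B (green triangles) and Ctrlv2 (grey squares), on the log2(FPKM + 1) scale. The number of genes is in brackets after each name. The medians run from -3.28 (naive pluripotency) to 3.89 (retinoic acid metabolism and binding) in Arf-C, and several lists hold genes that passed the level rule through day 8 alone.

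Imprinted genes, expressed from the maternal or the paternal copy alone, rose for 15 and fell for 3 of 21 members. Of the 21, 6 were members through day 8 alone, so that their being higher follows from the level rule. Peg3 had 3.46, 2.60 and 3.39 FPKM at day 0 and 68.9, 60.3 and 51.1 FPKM at day 8 (log2 fold change 3.88 with an SE of 0.116, adjusted p = 1.65e-13). Igf2, a fetal growth factor, had 1 read over the 3 day 0 libraries and 9.01 ± 1.34 FPKM at day 8, and H19, its neighbour, went from 0.0529 ± 0.0265 to 4.28 ± 0.601 FPKM. Both were called higher. Phlda2, a placental growth regulator, and Snrpn, a splicing protein gene, were called lower (log2 fold changes -1.91 and -1.32). The response was more negative in Arf-C than in Ctrlv2 for 13 of the 21 and more positive for 2.

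Peg10, a retrotransposon-derived imprinted gene of placenta (ENSMUSG00000092035, chr6:4747306-4760517, plus strand), had the smallest adjusted p of the differences from Arf-B. It had 0.340, 0.257 and 0.286 FPKM at day 0 and 15.7, 14.9 and 12.9 FPKM at day 8 in Arf-C (log2 fold change 3.58 with an SE of 0.0974, adjusted p = 6e-14). Arf-B had 0.294, 0.349 and 0.562 FPKM at day 0 and 4.14, 4.06 and 4.70 at day 8, so the day 8 values of the 2 lines do not overlap, and the response of Arf-C was more positive by 1.66 (adjusted p = 5.63e-05). Ctrlv2 had far more, 21.0 ± 2.04 FPKM at day 0 and 407 ± 45.7 at day 8. Over 22 fits, the one reported included, the difference from Arf-B lay between 1.57 and 2.11, with adjusted p between 2.48e-05 and 0.0140. Sgce, the imprinted neighbour that shares a promoter region with Peg10, was at 0.119 ± 0.0308 FPKM in Arf-C and 4.82 ± 0.0834 in Ctrlv2 at day 8, and did not reach the level in Arf-C.

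The remaining genes called against Arf-B were CT010467.1, Lefty2 and Trpm1. CT010467.1 rose from 33.2 ± 2.51 to 132 ± 38.4 FPKM (difference from Arf-B 1.69, adjusted p = 0.00781), with 173, 97.4 and 124 FPKM in the 3 day 8 libraries, all above day 0. It is listed by its identifier alone, and its difference was called in all 22 fits (adjusted p between 0.000446 and 0.0450). Trpm1, a cation channel of melanocytes and retina, fell from 5.15 ± 0.268 to 0.0359 ± 0.0269 FPKM (difference -0.98, adjusted p = 0.000906). Its call was lost with a pseudocount of 0.1 (difference -1.31, adjusted p = 0.205) and with voom (difference -1.75, adjusted p = 0.536).

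Cdkn2a, which gives both p19Arf and p16Ink4a from overlapping reading frames (ENSMUSG00000044303, chr4:89274471-89294653, minus strand), rose strongly in Arf-C. It had 2.18, 2.31 and 2.37 FPKM at day 0 and 46.3, 42.6 and 43.3 FPKM at day 8 (log2 fold change 3.78 with an SE of 0.112, adjusted p = 1.43e-13). Day 8 lay far above day 0 in every library, and gene-level values do not tell the 2 transcripts apart. The rise was larger than in Ctrlv2 (difference 0.57 with an SE of 0.158, adjusted p = 0.00981), where the day 8 libraries had 32.5, 32.0 and 34.3 FPKM, and was not separated from that in Arf-B (difference -0.10, adjusted p = 0.933). Its neighbour Cdkn2b, which encodes the kinase inhibitor p15Ink4b, went from 0.474 ± 0.204 to 4.55 ± 0.254 FPKM (log2 fold change 1.92 with an SE of 0.147, adjusted p = 9.42e-09).

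Mdm2, the target of p19Arf and itself induced by Trp53, had 29.3, 32.1 and 32.2 FPKM at day 0 and 44.2, 42.7 and 36.3 FPKM at day 8 (log2 fold change 0.38 with an SE of 0.0859, adjusted p = 0.000974). The rise was small beside that of Ctrlv2, from 23.4 ± 0.785 to 58.8 ± 3.52 FPKM (difference -0.91 with an SE of 0.121, adjusted p = 3.42e-05), and the Arf-C day 0 libraries lay above those of Ctrlv2. Cdkn1a, the p21 kinase inhibitor and a classical Trp53 target, had 9.92, 13.6 and 10.9 FPKM at day 0 and 28.8, 24.1 and 22.2 FPKM at day 8 (log2 fold change 1.07 with an SE of 0.127, adjusted p = 1.76e-06). It too rose less than in Ctrlv2, which had 35.3, 41.3 and 39.6 FPKM at day 8 (difference -0.71 with an SE of 0.18, adjusted p = 0.00566). Trp53 itself fell, with 107, 105 and 103 FPKM at day 0 and 49.4, 41.1 and 46.2 FPKM at day 8 (log2 fold change -1.19 with an SE of 0.0755, adjusted p = 1e-09), and the groups do not overlap. In Ctrlv2 Trp53 fell more (difference 0.43 with an SE of 0.107, adjusted p = 0.00462).

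Npm1, the nucleolar protein that binds p19Arf, had 889, 1139 and 1059 FPKM at day 0 and 677, 658 and 699 FPKM at day 8 (log2 fold change -0.59 with an SE of 0.106, adjusted p = 0.000119), every day 8 library being lower, and its response was not separated from that of Ctrlv2 (difference -0.27, adjusted p = 0.171). Of 12 p19Arf partners 10 fell and 1, Mdm2, rose. Ubtf, a factor of ribosomal RNA transcription, and Senp3, a SUMO protease, had log2 fold changes of -1.03 and -0.74. Of 30 Trp53 targets, 2 of them members through day 8 alone, 18 rose and 8 fell. Their median log2 fold change was 0.53 in Arf-C and 0.42 in Ctrlv2. The growth regulators Btg2 and Phlda3 and the kinase gene Plk2 had log2 fold changes of 1.71, 1.66 and 1.56, and the metabolic gene Tigar and the death effector Bax of -1.56 and -0.62. With libraries scaled to the same sum, 5 rather than 8 were lower. The response was more positive than in Ctrlv2 for 6 targets and more negative for 10, among the former Pmaip1 (difference 2.05, adjusted p = 3.29e-07).

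**Figure D4:**
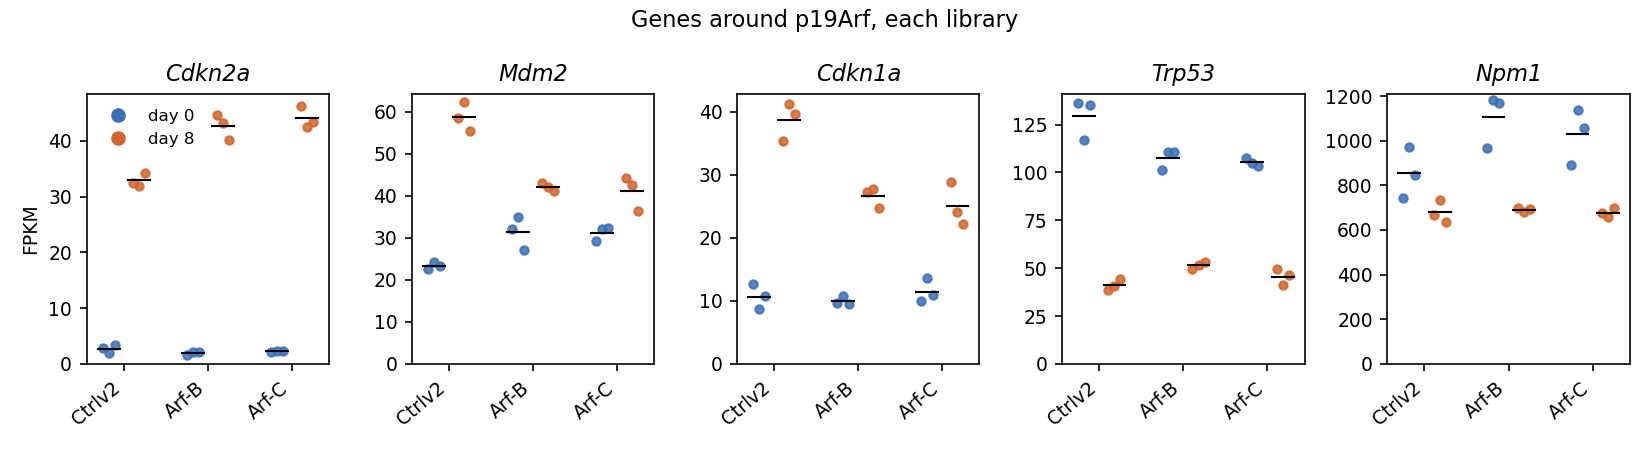
FPKM of Cdkn2a, Mdm2, Cdkn1a, Trp53 and Npm1 in each of the 18 libraries, by line, with day 0 in blue, day 8 in orange and the mean of each group as a black bar. The Cdkn2a panel shows the day 8 libraries of Arf-C between 42.6 and 46.3 FPKM, and the Mdm2 and Cdkn1a panels show them below those of Ctrlv2.

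Genes of DNA replication and mitosis fell together, 25 of 27, with a median of -0.86. Mybl2, which drives mitotic genes in stem cells, had 261, 254 and 255 FPKM at day 0 and 32.8, 37.8 and 42.7 FPKM at day 8 (log2 fold change -2.74 with an SE of 0.0892, adjusted p = 4.14e-13). Its groups were far apart. The replicative helicase subunit Mcm5, the mitotic kinase gene Aurka and the cyclin gene Ccnb1 had log2 fold changes of -1.33, -1.50 and -1.26. Mki67 was not called (log2 fold change 0.08 with an SE of 0.258, adjusted p = 0.801). Aurkb was called higher (log2 fold change 0.25 with an SE of 0.0797, adjusted p = 0.0106), a call lost without day 0 replicate 3 (adjusted p = 0.0630) or day 8 replicate 3 (0.0533).

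Among G1 regulators the D cyclins moved in opposite directions. Ccnd1 fell from 8.42 ± 0.406 to 1.60 ± 0.325 FPKM and Ccnd2 rose from 0.0452 ± 0.0139 to 3.91 ± 0.288. Cdk2 fell from 33.3 ± 0.271 to 9.42 ± 0.541 FPKM, more than in Ctrlv2 (difference -1.12 with an SE of 0.0808, adjusted p = 8.9e-08). Ribosomal protein genes were lower for 12 of 20 and higher for 1 (Rps19), with a median of -0.23. With libraries scaled to the same sum these counts were 6 and 4, with Arf-C libraries alone 7 were lower, and 6 without day 0 replicate 2 or day 8 replicate 2.

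Feedback genes of the Nodal pathway, which activin A enters through the same receptors, fell. Lefty2, a secreted Nodal inhibitor, had 31.6, 27.6 and 29.7 FPKM at day 0 and 0.0463, 0.201 and 0.554 FPKM at day 8 (log2 fold change -4.61 with an SE of 0.175, adjusted p = 3.05e-12), and Lefty1 had 37.6, 41.6 and 39.98 FPKM at day 0 and 1.14, 1.06 and 1.32 FPKM at day 8 (log2 fold change -4.23 with an SE of 0.187, adjusted p = 2.12e-11). At day 8 Lefty2 was at most 0.554 FPKM and Lefty1 at most 1.32 FPKM. They fell further than in Ctrlv2 (differences -1.27 and -1.29, adjusted p = 0.000916 and 0.00139).

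Against Arf-B, Lefty2 was called (difference -1.64, adjusted p = 0.0352) and Lefty1 was not (difference -1.57, adjusted p = 0.0523). The Lefty2 call was lost without any one Arf-C library except day 8 replicate 3, and without Arf-B day 0 replicate 1 or 2 or day 8 replicate 2 or 3, and with voom on recovered reads (difference -3.82, adjusted p = 0.0633). Its adjusted p over 22 fits ran from 0.00333 to 0.128. Lefty1 was called without Arf-B day 8 replicate 1 (adjusted p = 0.00896), with the same sum (0.0262), a mean of at least 1 FPKM (0.0360), voom (0.0417), the replicate block (0.0429) and a pseudocount of 0.1 (0.0446), and its own range was 0.00896 to 0.201. The 2 genes thus lay on either side of the threshold by a small margin. Nodal fell from 33.2 ± 3.41 to 7.46 ± 1.51 FPKM, and the transducers Smad2 and Smad3 rose, Smad3 from 1.64 ± 0.0317 to 10.4 ± 0.561. Of 15 members, 1 through day 8 alone, 6 rose and 8 fell. Fst, which binds activin, fell in Arf-C (log2 fold change -1.61) and rose in Ctrlv2 (log2 fold change 0.89). The difference was -2.49 with an SE of 0.21 (adjusted p = 4.12e-07).

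Genes of the Fgf pathway list, which holds ligands, receptors and targets, fell for 12 of 18 members and rose for 4. Of the 18, 3 were members through day 8 alone and 2 through day 0 alone. Spry4, a feedback inhibitor, had 51.3, 37.0 and 46.2 FPKM at day 0 and 0.211, 0.382 and 0.809 FPKM at day 8 (log2 fold change -4.97 with an SE of 0.173, adjusted p = 1.02e-12). Fgf4, the ligand made by stem cells, had 82.4, 88.9 and 83.5 FPKM at day 0 and 1.42, 2.19 and 2.03 FPKM at day 8 (log2 fold change -4.91 with an SE of 0.111, adjusted p = 7.92e-15). Both were far lower in every day 8 library than at day 0, and the ERK-responsive factors Etv4 and Etv5 had log2 fold changes of -3.85 and -3.27. Among receptors, Fgfr2, which reads FGF10, rose from 0.0962 ± 0.0490 to 5.58 ± 1.03 FPKM, and Fgfr1 from 8.38 ± 0.302 to 13.2 ± 0.415.

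Of the LIF and Stat3 list 4 of 10 members rose and 5 fell. Socs3, an immediate product of Stat3 signalling, had 62.1, 67.1 and 58.0 FPKM at day 0 and 7.01, 5.88 and 4.20 FPKM at day 8 (log2 fold change -3.26 with an SE of 0.143, adjusted p = 1.56e-11), all day 8 libraries being lower. The kinase gene Pim3 and the LIF receptor gene Lifr had log2 fold changes of -2.14 and -1.32, whereas Lifr was at 8.11 ± 0.881 and 8.71 ± 1.33 FPKM in Ctrlv2 (difference -1.41 with an SE of 0.131, adjusted p = 1.05e-06). Bmp and Id genes rose for 12 and fell for 2 of 15 members, 2 of the 15 being members through day 8 alone. Id2 and Id3, inhibitors of bHLH factors, rose (log2 fold changes 2.04 and 1.81), less than in Ctrlv2 (differences -1.46 and -1.56, adjusted p = 2.75e-06 and 1.9e-05). Bmp4 fell from 39.3 ± 3.80 to 5.71 ± 0.450 FPKM and Bmp7 rose from 1.15 ± 0.0993 to 10.2 ± 1.26.

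Yap targets rose for 8 and fell for 1 of 10 members. Cyr61, a secreted matrix protein, had 1.49, 2.02 and 1.67 FPKM at day 0 and 90.4, 73.3 and 58.0 FPKM at day 8 (log2 fold change 4.76 with an SE of 0.152, adjusted p = 4.43e-13). Day 8 stood clear of day 0, with library 1 the highest and library 3 the lowest of the day 8 libraries. In Ctrlv2 it reached 201 ± 28.1 FPKM (difference -0.93 with an SE of 0.216, adjusted p = 0.00318), a difference not called with voom on recovered reads (adjusted p = 0.170). In the Notch list the receptors Notch3 and Notch2 had log2 fold changes of 1.74 and 1.55 and the ligand Jag1 one of -1.84, the last a larger fall than in Ctrlv2 (difference -1.45 with an SE of 0.118, adjusted p = 3.12e-07).

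Txnip, which inhibits thioredoxin and glucose uptake, was the largest fall by the naming rule. It had 231, 270.3 and 251 FPKM at day 0 and 0.678, 0.561 and 0.826 FPKM at day 8 (log2 fold change -7.22 with an SE of 0.171, adjusted p = 2.42e-14), and was low in every day 8 library. Slc2a1, the glucose transporter it restrains, had 34.4, 35.8 and 36.4 FPKM at day 0 and 174, 194 and 211 FPKM at day 8 (log2 fold change 2.40 with an SE of 0.102, adjusted p = 8.34e-12), every day 8 library being higher. Hypoxia and glycolysis genes were otherwise divided, with 4 of 19 higher, 5 lower and 10 not called. With libraries scaled to the same sum 7 were higher.

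Iron and oxidative stress genes fell for 8 of 10 members and rose for none. Fth1, ferritin heavy chain, had 592, 791 and 709.9 FPKM at day 0 and 326, 296 and 342 FPKM at day 8 (log2 fold change -1.11 with an SE of 0.0952, adjusted p = 3.76e-08), and was lower at day 8 in all libraries. Hmox1, haem oxygenase, was not called in Arf-C, where it had 46.3, 48.1 and 44.8 FPKM at day 0 and 55.1, 34.8 and 35.4 FPKM at day 8 (log2 fold change -0.18 with an SE of 0.248, adjusted p = 0.544), and its groups overlapped. In Ctrlv2 it reached 199, 519.7 and 371 FPKM at day 8, far above every Arf-C library (difference -3.39 with an SE of 0.351, adjusted p = 4.55e-06). Of the 10 members, 8 had a more negative response in Arf-C than in Ctrlv2.

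Stress and immediate early genes rose for 6 and fell for 3 of 12 members, beside 34.0% higher and 36.5% lower over all members. Of the 12, 1 was a member through day 8 alone. Jun had 1.43, 1.60 and 1.59 FPKM at day 0 and 29.2, 24.1 and 21.8 FPKM at day 8 (log2 fold change 3.35 with an SE of 0.104, adjusted p = 2.4e-13) and Atf3 rose from 4.23 ± 0.422 to 19.6 ± 1.77 FPKM. The heat shock genes Hspa1a and Hspa1b, near-identical copies between which reads can be shared, rose to 3.22 ± 0.904 and 5.28 ± 1.02 FPKM. In Ctrlv2 they reached 31.8 ± 16.4 and 51.6 ± 25.7 FPKM, and the differences were -2.75 and -2.76. With voom on recovered reads they were -2.56 and -2.71 and not called (adjusted p = 0.283 and 0.0832). All 8 members of the antigen presentation list rose, 1 of them a member through day 8 alone. Tap1, the peptide transporter, went from 0.482 ± 0.0409 to 6.41 ± 0.554 FPKM, and B2m from 47.7 ± 4.14 to 111 ± 3.02, less than in Ctrlv2 (difference -2.44 with an SE of 0.14, adjusted p = 1.17e-08).

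The day responses that differed most from Ctrlv2 were taken by a fixed rule, 10 in each direction. Some of those more positive in Arf-C were genes that kept a higher day 8 level in Arf-C, namely Nanog, Dppa5a and Sept1, a septin gene that went from 159 ± 12.3 to 8.78 ± 2.44 FPKM in Arf-C and from 289 ± 9.06 to 0.988 ± 0.432 in Ctrlv2 (difference 3.15 with an SE of 0.248, adjusted p = 2.84e-07). Others were higher at day 0 in Ctrlv2, among them Stra8, Rhox13, Thy1 and S100a6. The last, a calcium-binding protein gene, was at 0.275 ± 0.209 and 1.30 ± 0.0905 FPKM in Arf-C and 29.1 ± 1.85 and 1.86 ± 0.289 in Ctrlv2 (difference 4.26 with an SE of 0.164, adjusted p = 2.5e-10).

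Fbxo2, Tuba3a and Islr2, like S100a6, rose in Arf-C and fell in Ctrlv2. Fbxo2 and Tuba3a were also higher at day 0 in Ctrlv2. Fbxo2, a ubiquitin ligase subunit that recognises glycoproteins, had 9.31, 9.93 and 8.44 FPKM at day 0 and 70.5, 55.9 and 58.1 FPKM at day 8 (log2 fold change 2.61 with an SE of 0.0928, adjusted p = 1.02e-12), while Ctrlv2 went from 56.5 ± 3.14 to 26.7 ± 0.631 FPKM (difference 3.66 with an SE of 0.131, adjusted p = 1.46e-10). The day 0 and day 8 values do not overlap in Arf-C. Over all members, 311 rose in Arf-C and fell in Ctrlv2 with the difference called, and 332 did the reverse.

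Among responses more negative in Arf-C, Pmel, a melanosome protein gene, had 32.2, 34.3 and 33.1 FPKM at day 0 and 1.37, 1.99 and 2.17 FPKM at day 8 (log2 fold change -3.60 with an SE of 0.107, adjusted p = 1.55e-13). All its day 8 libraries were low, and in Ctrlv2 the level went from 17.7 ± 2.79 to 26.7 ± 1.12 FPKM (difference -4.18 with an SE of 0.151, adjusted p = 1.46e-10). Setbp1 fell from 12.3 ± 2.28 to 3.68 ± 0.316 FPKM in Arf-C and rose from 0.187 ± 0.0251 to 2.96 ± 0.213 in Ctrlv2 (difference -3.23 with an SE of 0.151, adjusted p = 1.3e-09). Fabp3, a fatty acid carrier, fell from 264 ± 32.2 to 165 ± 8.66 FPKM in Arf-C and rose from 64.0 ± 8.24 to 335 ± 37.6 in Ctrlv2 (difference -3.04 with an SE of 0.143, adjusted p = 1.31e-09). Arrdc2 rose in both lines, to 9.96 ± 1.94 FPKM in Arf-C and 67.7 ± 0.252 in Ctrlv2 (difference -2.65, adjusted p = 1.06e-08). Hmox1, Acta1, Acta2, Hspa1a, Hspa1b and Lama1, described above, complete the 10. In all, 591 members had a response at least 2-fold more positive in Arf-C and 470 one at least 2-fold more negative.

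**Figure D5:**
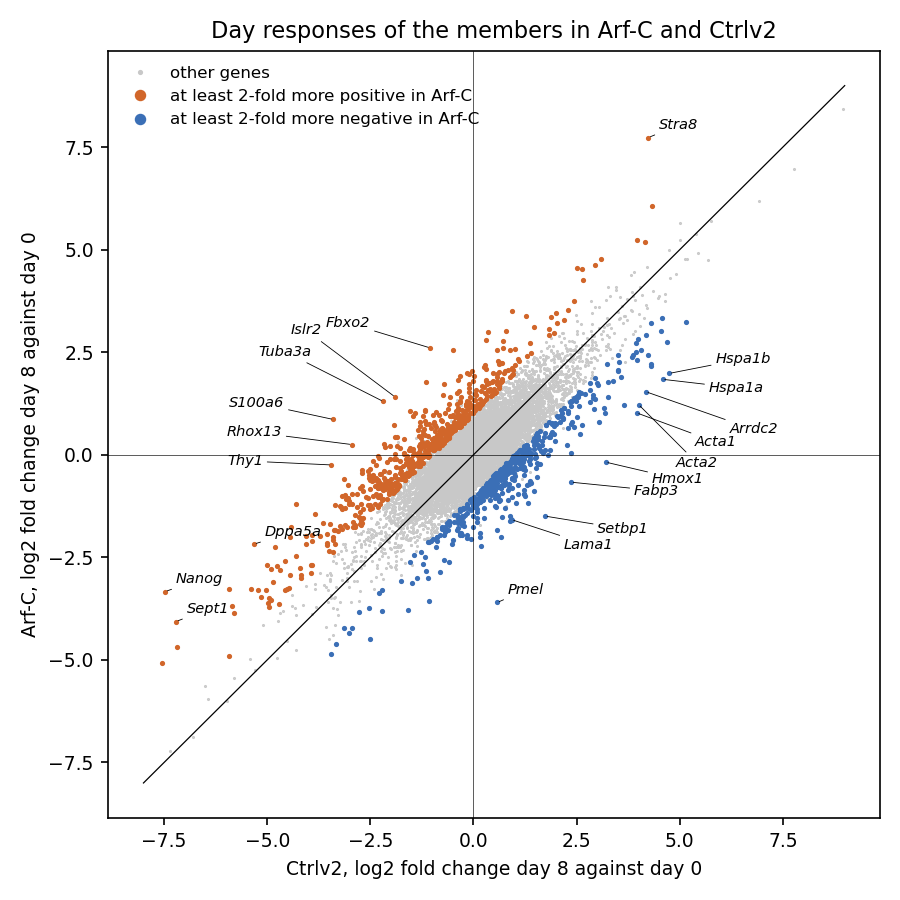
Log2 fold change from day 0 to day 8 of each member in Ctrlv2 (x axis) and Arf-C (y axis), with the line of equal responses. Orange and blue points are the 591 and 470 genes whose response was called at least 2-fold more positive or more negative in Arf-C, and the 20 named genes are labelled. S100a6, Fbxo2 and Islr2 lie above 0 in Arf-C and below 0 in Ctrlv2, and Pmel the reverse.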

How the data were processed

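RNA with poly(A) tails from 6 groups of 3 libraries was sequenced, per the labels. The authors deposited one table of FPKM values for 18 libraries. The tools listed in the submitters' processing notes are HISAT2, featureCounts and DESeq2, on the mouse build mm10, with neither roles nor versions. All columns matched a library by name. Dividing the deposited FPKM by what 1 read is worth per gene gave whole reads for all 413772 values above 0, within a tolerance of 0.001 reads. The implied library sizes lay within 0.524% of median-ratio size factors. As an alternative, median-ratio scaling therefore changed the scale of each library little. Reads were used for depth, for floors of 3 reads and for a count-based alternative. Counting error was not given separately.

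The fit was limma 3.58.1 (R 4.3.3, statmod 1.5.0; Python 3.11.15, pandas 2.3.3, numpy 2.4.6) on log2(FPKM + 1) over all 18 libraries, 1 coefficient per group, with robust and trended variance moderation. Genes needed 0.5 FPKM in 3 libraries, and the threshold was an adjusted p of 0.05. The day response is day 8 minus day 0 in 1 line, and differences between lines are interaction terms. The script was tested on simulated data before use. Alternatives were other scalings (median ratio, same sum), other filters (none, mean of at least 1 FPKM), a pseudocount of 0.1, and other models (voom on recovered reads, plain moderation, a replicate block, Arf-C libraries alone), besides leaving out each library. Thinning reads to the smallest library was added after the data were seen.

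Members and lists were chosen with earlier results of these data known. Named genes are the p19Arf and core stem cell genes and Pdx1, the 12 largest rises and 12 largest falls with at least 5 FPKM, up to 4 called genes per list plus any called against the list's majority, the 10 largest differences per direction from Ctrlv2 and 6 from Arf-B, and the 5 most abundant genes per day, 285 in all. Chosen after their values were seen were Aldh1a1, Aldh1a2, Aldh1a3, Afp, B2m, Blvrb, CT010467.1, Cdh1, Cdx1, Cer1, Cfap45, Cldn4, Ddx3y, Epcam, H19, Hnf4a, Id3, Lefty1, Mael, Mki67, Mnx1, Neurog3, Ppbp, Prox1, Sgce, Sox17, Sox9, Stra6, Syndig1, Ttr, single Hox genes, and the other pancreatic, heart and placental genes given as low. A few genes that the rule names are not reported here. Promoter sequences are from RefSeq (GRCm38.p6).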

Additional observations from a re-analysis of the deposited data

Results flagged for a closer look

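The day response of Arf-C differed from that of Ctrlv2 for 3072 members in the positive and 3116 in the negative direction, and from that of Arf-B for 2 in each, by the interaction terms. The differences from Ctrlv2 on the log2(FPKM + 1) scale were 4.26 for S100a6, 4.14 for Nanog, 3.66 for Fbxo2, 3.49 for Stra8, 3.49 for Tuba3a, 3.31 for Islr2, 3.20 for Rhox13, 3.20 for Thy1, 3.15 for Sept1 and 3.14 for Dppa5a. In the negative direction they were -4.18 for Pmel, -3.39 for Hmox1, -3.23 for Setbp1, -3.04 for Fabp3, -2.94 for Acta1, -2.78 for Acta2, -2.76 for Hspa1b, -2.75 for Hspa1a, -2.65 for Arrdc2 and -2.51 for Lama1.

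Several of these genes stood at different levels in the lines at day 0. At day 0, Rhox13, a homeobox gene of germ cells, was at 1.11 FPKM in Arf-C and 15.7 in Ctrlv2, and Thy1, a surface glycoprotein gene, at 2.02 and 15.8. At day 8 they were at 1.56 against 1.16 and 1.58 against 0.535 FPKM. Tuba3a, a tubulin gene, went from 4.29 to 12.6 FPKM in Arf-C and from 30.4 to 5.86 in Ctrlv2. Acta1, skeletal muscle actin, reached 1.25 FPKM in Arf-C and 15.4 in Ctrlv2.

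Against Arf-B the differences were 1.69 for CT010467.1, 1.66 for Peg10, -1.64 for Lefty2 and -0.98 for Trpm1. The calls of Lefty2 and Trpm1 were lost under some alternatives, given above. Trpm1 was at 5.15 FPKM at day 0 in Arf-C and 2.15 in Arf-B, and near 0 at day 8 in both.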

How the results depend on the processing

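In the counts that follow, a value called in neither fit was taken as kept even if its sign changed. Of 310 day responses of single genes recomputed under each alternative, 4866 values kept their side of the threshold, and their direction where called. Of the rest, 61 lost the call, 9 gained one and 1 reversed. That was Hsp90ab1, with a log2 fold change of 0.16 with libraries scaled to the same sum (adjusted p = 0.0227) and -0.04 otherwise. Of differences from Ctrlv2, 1328 values held, 10 lost the call, 3 gained it and 3 reversed. These were Cyp26a1 with a pseudocount of 0.1 (0.23) and with voom (1.96), and Hoxb1 with voom (-1.75), none of them called. The cause was not tested. The count of genes at least 2-fold higher was 2755 with a pseudocount of 0.1 and 2860 with voom, and of those at least 2-fold lower 2007 with voom, since the log2(FPKM + 1) scale shrinks the change of low genes. Responses more positive than in Arf-B numbered 6 with thinned reads. Those more negative numbered 7 with a mean of at least 1 FPKM, 4 with median-ratio scaling, 9 with a pseudocount of 0.1, 9 with thinned reads, 8 with the same sum and 8 with voom, against 2. Leaving out 1 library in turn gave 4917 to 5062 genes higher, 5213 to 5438 lower, 1637 to 1675 at least 2-fold higher, 1270 to 1336 at least 2-fold lower, 2723 to 3062 more positive and 2717 to 3162 more negative than Ctrlv2, and 2 to 3 more positive and 1 to 3 more negative than Arf-B. The last was 1 without Arf-B day 0 replicate 1, Arf-B day 8 replicate 2 or 3, any Arf-C day 0 replicate, or Arf-C day 8 replicate 1 or 2. With the replicate block 5145 genes were higher and 5548 lower. Same-numbered libraries of day 0 and day 8 correlated at -0.0311, -0.0854 and -0.0282 in their deviations from the group mean, and no library correlated best with its own number, so the numbers were not taken as pairs. Of the list counts, 1577 stayed within 1.5 times and 55 did not. Among the latter, with the same sum, genes lower went from 7 to 4 in the Myc network and genes higher from 3 to 5 among Wnt targets and from 1 to 3 among G1 cyclins and kinases. Depth at day 8, 14598683 to 15678839 reads on genes per library, limits genes below 0.5 FPKM such as Pdx1, for which no call was made.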

Other observations

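Genes of germ cells and meiosis rose for 8 and fell for 3 of 14 members, beside Stra8 and Rec8. Sohlh2, a germ cell transcription factor, went from 9.73 ± 0.645 to 30.5 ± 2.89 FPKM (log2 fold change 1.55 with an SE of 0.101, adjusted p = 1.39e-09), and Mael, of the piRNA pathway, from 6.63 ± 0.810 to 12.4 ± 1.92. Sycp3, of the synaptonemal complex, fell from 18.9 ± 2.77 to 2.62 ± 0.281 FPKM, and Piwil2 from 3.22 ± 0.121 to 1.40 ± 0.398. The response was more positive than in Ctrlv2 for 7 of the 14, among them Mael (difference 1.76 with an SE of 0.143, adjusted p = 2.84e-07) and Piwil2 (difference 1.35 with an SE of 0.137, adjusted p = 2.65e-06), and more negative for 1.

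Chromatin genes changed in both directions. Of 15 Polycomb members, 2 of them through day 8 alone, 5 rose and 9 fell, beside 34.0% higher and 36.5% lower over all members. Eed, a core subunit of Polycomb complex PRC2, had 116, 128 and 126 FPKM at day 0 and 32.3, 30.1 and 33.0 FPKM at day 8 (log2 fold change -1.93 with an SE of 0.0632, adjusted p = 4.43e-13), and the CBX reader Cbx8 rose from 0.174 ± 0.0160 to 2.41 ± 0.0770 FPKM. Of 12 genes of DNA methylation 4 rose and 6 fell, the rises being near the share over all members. Tet1 and Tet2, which oxidise methylcytosine, fell to 2.05 ± 0.170 and 2.14 ± 0.494 FPKM from 20.1 ± 4.03 and 12.8 ± 4.24, while Tet3 rose from 0.930 ± 0.181 to 4.91 ± 0.359. The methyltransferase gene Dnmt3b rose from 13.8 ± 0.226 to 20.1 ± 1.48 FPKM, with a more positive response than in Ctrlv2 (difference 1.35 with an SE of 0.116, adjusted p = 4.94e-07).

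Sox4, a transcription factor of many embryonic tissues, rose from 2.58 ± 0.267 to 26.3 ± 2.10 FPKM, less than in Ctrlv2 (difference -1.25 with an SE of 0.119, adjusted p = 1.37e-06). Foxd3, shared by stem cells and neural crest, fell from 8.70 ± 1.40 to 0.435 ± 0.0489 FPKM, less than in Ctrlv2 (difference 1.45 with an SE of 0.167, adjusted p = 9.13e-06). Cholesterol synthesis genes rose for 9 and fell for 3 of 14 members, with Dhcr7 going from 2.89 ± 0.389 to 5.79 ± 0.666 FPKM. Among apoptosis regulators 11 of 21 rose and 8 fell, 1 of the 21 being a member through day 8 alone. Bcl2l11, which encodes the death activator Bim, rose from 2.08 ± 0.0718 to 7.43 ± 0.0819 FPKM and the survivin gene Birc5 fell from 53.1 ± 5.36 to 20.3 ± 0.121. Of 6 Y-linked genes only Eif2s3y was at the level, at 9.75 ± 0.757 FPKM at day 0 and 8.42 ± 1.02 at day 8 (adjusted p = 0.185). In Ctrlv2 it was at 17.3 ± 3.53 and 19.6 ± 1.48 FPKM.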
